A study of Homo sapiens with 8 samples.

Results

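RNA of the BCL2 family of apoptosis regulators was compared in HBL-1 and BJAB, 2 human lines of B-cell lymphoma, after 6 h of treatment with APRIL or EDA. The members were 10 genes, each taken from the row of the array table whose annotation gave exactly that symbol, out of 33616 genes with exactly 1 symbol; 0 of the 10 had more than 1 such row, so no choice among rows was needed. They comprise 4 anti-apoptotic genes (BCL2, BCL2L1, MCL1 and BCL2A1), 2 effectors (BAX and BAK1) and 4 BH3-only genes (BCL2L11, BID, PMAIP1 and BIK). RNA was measured on 8 one-colour Affymetrix arrays in 4 groups of 2: HBL-1 with EDA, HBL-1 with APRIL, BJAB with EDA and BJAB with APRIL. APRIL is a cytokine of the TNF superfamily whose receptors on B cells are BCMA and TACI. EDA belongs to that superfamily too and served as the control ligand, and each was given at 1 µg/ml. HBL-1 represents activated B-cell lymphoma and BJAB the germinal-centre class, so each class is seen in a single line. No array held cells without a ligand. Nothing in the labels ties replicates to separate cultures. The p-values therefore measure the spread between arrays, which may be technical. In such bulk RNA, fewer cells with a transcript and less of it per cell cannot be told apart.

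The family decides whether a cell opens its outer mitochondrial membrane and dies. The effectors BAX and BAK form the pores, the anti-apoptotic proteins hold them and their activators in check, and the BH3-only proteins sense stress and either neutralise the anti-apoptotic proteins or activate the effectors directly. B-cell lymphomas are known to depend on different anti-apoptotic members, which is the basis for drugs that mimic BH3-only proteins and bind BCL2, BCL-XL or MCL1.

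BCL2, BCL2L1 and BCL2A1 were the 3 anti-apoptotic members whose RNA differed between the lines, and the 250 bases before their annotated starts are shown for that reason. The sequences are from RefSeq on build GRCh38.p14, each read on the minus strand from 5′ to 3′, with the last base next to the start. BCL2 lies at chr18:63319770-63320019, BCL2L1 (the first of its 2 listed starts) at chr20:31723964-31724213 and BCL2A1 at chr15:79971197-79971446. Capitals mark matches, on either strand and with overlaps allowed, to a kappaB-like pattern (GGG, then any 5 bases, then CC), the GC box GGGCGG or the TATA word TATAA.
BCL2: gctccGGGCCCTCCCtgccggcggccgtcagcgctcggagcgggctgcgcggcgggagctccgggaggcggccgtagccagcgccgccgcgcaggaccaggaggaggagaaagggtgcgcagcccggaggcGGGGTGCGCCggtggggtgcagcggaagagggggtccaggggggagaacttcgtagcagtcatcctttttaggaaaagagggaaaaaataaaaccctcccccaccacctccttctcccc
BCL2L1: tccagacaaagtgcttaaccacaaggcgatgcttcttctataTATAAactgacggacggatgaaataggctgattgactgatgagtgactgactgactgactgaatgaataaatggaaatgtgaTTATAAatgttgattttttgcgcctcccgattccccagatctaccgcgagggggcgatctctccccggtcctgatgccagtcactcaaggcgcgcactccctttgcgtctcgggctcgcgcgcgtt
BCL2A1: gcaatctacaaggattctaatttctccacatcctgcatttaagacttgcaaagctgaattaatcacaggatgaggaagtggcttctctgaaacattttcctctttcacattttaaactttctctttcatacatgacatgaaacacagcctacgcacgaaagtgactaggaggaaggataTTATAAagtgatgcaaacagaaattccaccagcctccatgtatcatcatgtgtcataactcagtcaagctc
The BCL2 stretch was the richest in G and C at 70.0%, against 50.0% for BCL2L1 and 38.8% for BCL2A1. BCL2 held 2 matches to the kappaB-like pattern, 1 beginning 245 and 1 beginning 119 bases before the start, and BCL2L1 and BCL2A1 held matches to TATAA alone. These short patterns are common: among 35116 listed promoter stretches of the same length, 54.4% held the kappaB-like pattern, 42.6% GGGCGG and 18.9% TATAA. The table matched 8 of the 10 members. Of those not shown, BAK1, BCL2L11, BID and PMAIP1 also held the kappaB-like pattern, and BAX did not. The second listed start of BCL2L1 held no match to any of the patterns, with 60.4% G and C. A match describes letters in these windows and nothing about the use of a site.

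The values are log2 signals made by the submitters with RMA. The median gene level was 5.58 to 5.74 on the 8 arrays, the correlation between replicates was 0.989 to 0.993 across genes, and the negative-control rows had a median of 5.23 to 5.53. The 95th percentile of the negative-control values over all arrays was 8.25. Where a line lies below that level, the size of a difference may be bounded by background. HBL-1 APRIL replicate 2 stood apart, with the highest median, and was the highest of the 4 HBL-1 arrays for 47% of all genes. The 4 measured B-cell markers, MS4A1, CD79A, CD79B and PAX5, averaged 14.05 to 14.77 on every array, but MS4A1, which encodes CD20, was lower in HBL-1 (9.79 to 10.36 against 12.64 to 12.75, difference -2.62, limma adjusted p = 7.45e-07). The mean of 6 T-cell and myeloid markers was 5.12 to 5.58 in HBL-1 and 6.65 to 6.91 in BJAB, where CD3G, a chain of the T-cell receptor complex, was at 11.16 to 11.66 against 4.47 to 5.41 in HBL-1. Its partner chains CD3E (6.50 to 7.02 in HBL-1, 7.27 to 8.21 in BJAB) and CD3D (3.90 to 4.08, 5.11 to 6.28) also passed as higher in BJAB. The myeloid markers CD14, LYZ and CSF1R were at 4.53 to 5.79 on all arrays. The part of these markers in the line differences below was not tested.

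**Figure D1:**
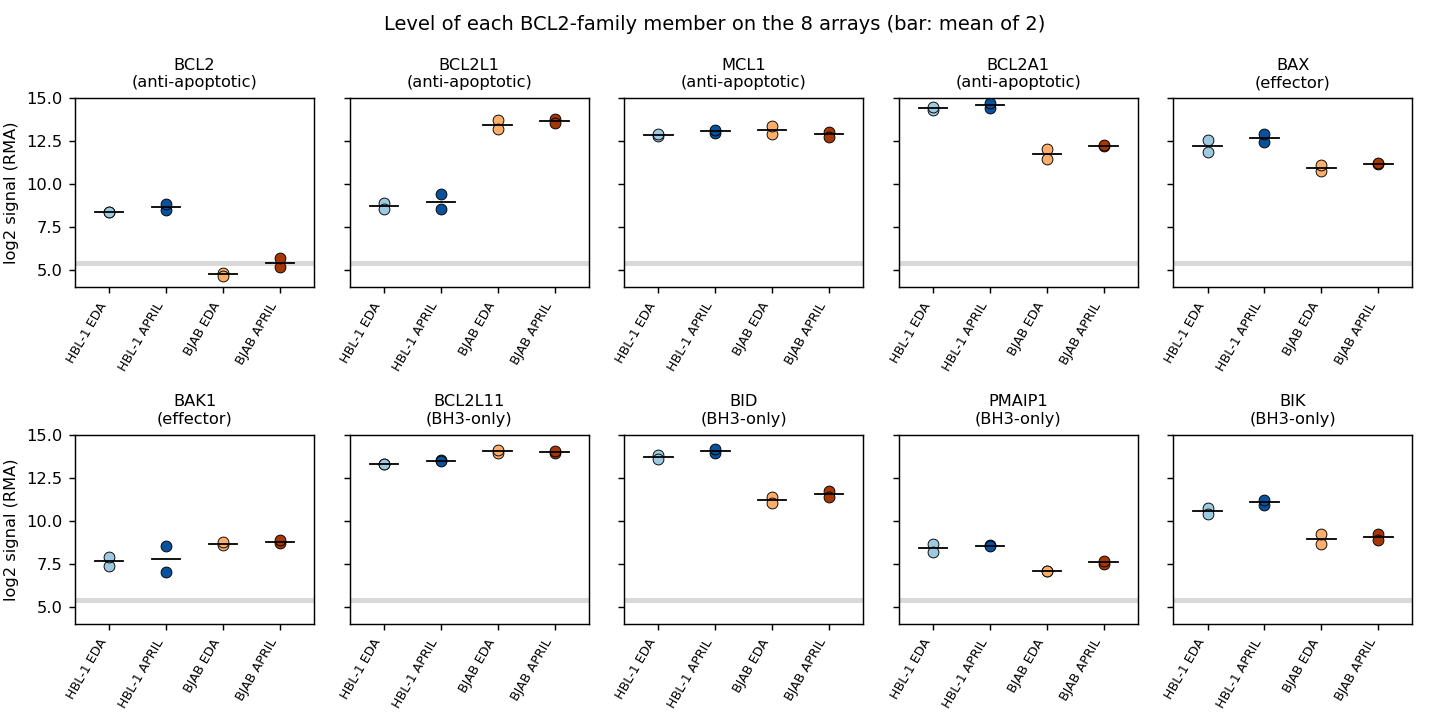
Log2 signal of each of the 10 members on the 8 arrays, by line and ligand. Points are arrays, black bars are the means of 2 and the grey band is the range of the negative-control medians (5.23 to 5.53). BCL2 in BJAB lies at the band, BCL2L1 runs opposite to BCL2 and BCL2A1, and MCL1 is at a like height in all 4 groups.

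The first comparison asked how the family differs between the lines. HBL-1 had more BCL2, BCL2A1, BAX, BID, PMAIP1 and BIK RNA than BJAB, and less BCL2L1, BAK1 and BCL2L11 RNA. MCL1 did not pass. On average over both ligands, 9 of the 10 members passed a threshold of 0.05 on the adjusted p of limma, with HBL-1 higher for 6 and lower for 3. Of all genes 24.2% passed, 10.3% higher and 13.9% lower, and of protein-coding genes alone 37%. The 4 arrays of one line lay wholly above or below those of the other for the same 9 members and for 25.9% of all genes, 11.5% with HBL-1 above and 14.4% with HBL-1 below.

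The anti-apoptotic members split. BCL2, the founding inhibitor of mitochondrial apoptosis, was at 8.37 and 8.39 in HBL-1 with EDA, at 8.46 and 8.83 with APRIL, and in BJAB at 4.83 and 4.68 with EDA and at 5.17 and 5.68 with APRIL. All 4 HBL-1 arrays were above all 4 BJAB arrays, by a log2 difference of 3.42 (SE 0.17, 95% confidence interval 3.04 to 3.80, n = 4 arrays per line, limma adjusted p = 1.57e-07), which is 10.7-fold. The BJAB values lay near the medians of the negative controls, so the size of this difference is bounded by the background of the arrays. The HBL-1 values of 8.37, 8.39 and 8.46 lay just above the 95th percentile of the negative controls (8.25).

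BCL2L1, which encodes BCL-XL and its shorter splice form BCL-XS, ran the other way. It was at 8.88 and 8.52 in HBL-1 with EDA, at 8.53 and 9.40 with APRIL, at 13.69 and 13.18 in BJAB with EDA and at 13.78 and 13.52 with APRIL. No HBL-1 array came within 3 log2 units of a BJAB array. The difference was -4.71 (SE 0.22, 95% confidence interval -5.20 to -4.22, adjusted p = 1.01e-07), 26.2-fold lower in HBL-1. The HBL-1 values of 8.52 and 8.53 lay just above the 95th percentile of the negative controls (8.25). The size of this difference may therefore be bounded by background. The table has 1 value per gene here and does not separate the splice forms, which act in opposite directions.

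BCL2A1, also known as BFL1, an inhibitor that is a known transcriptional target of NF-kB, was at 14.29 and 14.50 in HBL-1 with EDA, at 14.42 and 14.71 with APRIL, at 12.01 and 11.47 in BJAB with EDA and at 12.18 and 12.27 with APRIL. The lines did not overlap, and HBL-1 was higher by 2.50 (SE 0.17, 95% confidence interval 2.12 to 2.88, adjusted p = 1.78e-06). MCL1, a short-lived inhibitor controlled largely by protein turnover, was at 12.77 and 12.90 in HBL-1 with EDA, at 12.97 and 13.16 with APRIL, at 12.92 and 13.39 in BJAB with EDA and at 13.03 and 12.72 with APRIL. Its lines overlapped, and the difference of -0.07 (95% confidence interval -0.44 to 0.31, adjusted p = 0.846) did not pass. Differences beyond 0.44 on the log2 scale lie outside that interval.

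The effectors went in opposite directions. BAX, which moves from the cytosol to mitochondria on activation, was at 12.58 and 11.85 in HBL-1 with EDA, at 12.42 and 12.91 with APRIL, at 10.76 and 11.12 in BJAB with EDA and at 11.14 and 11.23 with APRIL. HBL-1 was higher on all arrays, by 1.38 (SE 0.20, 95% confidence interval 0.92 to 1.83, adjusted p = 0.00052). BAK1, whose product sits in the mitochondrial membrane, was at 7.38 and 7.88 in HBL-1 with EDA, at 7.02 and 8.55 with APRIL, at 8.57 and 8.74 in BJAB with EDA and at 8.70 and 8.87 with APRIL. All HBL-1 arrays were lower, with HBL-1 APRIL replicate 2 at 8.55 next to the lowest BJAB array at 8.57. The difference was -1.02 (SE 0.29, 95% confidence interval -1.66 to -0.37, adjusted p = 0.0274). The HBL-1 values of 7.38, 7.88 and 7.02 lay below the 95th percentile of the negative controls (8.25). The size of this difference may therefore be bounded by background.

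BAK1 was the member whose call depended most on single arrays. It did not pass without HBL-1 EDA replicate 1 (adjusted p = 0.0919), BJAB EDA replicate 1 (0.0564) or replicate 2 (0.0773), or BJAB APRIL replicate 1 (0.0579) or replicate 2 (0.0769), nor after quantile normalization of the tested genes (0.0554). Its difference was -0.63 without HBL-1 APRIL replicate 1 and -1.40 without HBL-1 APRIL replicate 2. Under APRIL alone, leaving out that second array gave -1.77, which passed (adjusted p = 0.00401).

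Among the BH3-only genes, 3 were higher in HBL-1 and 1 was lower. BID, which caspase-8 cleaves and which thereby links death receptors to mitochondria, was at 13.81 and 13.56 in HBL-1 with EDA, at 13.91 and 14.15 with APRIL, at 11.38 and 11.04 in BJAB with EDA and at 11.74 and 11.40 with APRIL. Its lines were well apart, with a difference of 2.47 (SE 0.17, 95% confidence interval 2.10 to 2.84, adjusted p = 1.52e-06). BIK, a BH3-only protein found mainly at the endoplasmic reticulum, was at 10.75 and 10.38 in HBL-1 with EDA, at 10.91 and 11.21 with APRIL, at 8.65 and 9.22 in BJAB with EDA and at 9.23 and 8.85 with APRIL. HBL-1 was higher on every array, by 1.83 (SE 0.19, adjusted p = 4.03e-05).

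PMAIP1, which encodes NOXA, a partner chiefly of MCL1 and BCL2A1, was at 8.67 and 8.17 in HBL-1 with EDA, at 8.56 and 8.50 with APRIL, at 7.10 and 7.05 in BJAB with EDA and at 7.46 and 7.68 with APRIL. The lines did not overlap and differed by 1.15 (SE 0.16, adjusted p = 0.000357). All BJAB values and the HBL-1 value of 8.17 lay below the 95th percentile of the negative controls (8.25). The size of this difference may therefore be bounded by background. BCL2L11, which encodes BIM, a BH3-only protein that binds all the main anti-apoptotic members, was at 13.28 and 13.32 in HBL-1 with EDA, at 13.51 and 13.47 with APRIL, at 13.94 and 14.13 in BJAB with EDA and at 13.96 and 14.06 with APRIL. Its arrays lay closest together, within 0.24 in HBL-1 and 0.19 in BJAB. The small difference of -0.63 (SE 0.14, 95% confidence interval -0.94 to -0.31, adjusted p = 0.00759) was 1.54-fold lower in HBL-1.

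The average uses the arrays of both ligands, and each ligand can also be read alone. Under EDA 8 of the 10 members passed, 6 with HBL-1 higher and 2 with HBL-1 lower, beside 16.6% of all genes (6.22% and 10.3%). Under APRIL 7 passed, 6 with HBL-1 higher and 1 with HBL-1 lower, beside 16.6% of all genes (7.92% and 8.72%). Under EDA HBL-1 and BJAB arrays were fully apart for 10 of the 10 members (6 above, 4 below), as for 55% of all genes (24.1% and 30.9%). Under APRIL this held for 9 (6 above, 3 below), as for 52.3% (27.9% and 24.4%). The 6 higher members were BCL2, BCL2A1, BAX, BID, PMAIP1 and BIK under both. BAX under EDA did not pass without HBL-1 EDA replicate 1 (adjusted p = 0.0969) or BJAB EDA replicate 1 (0.0974). PMAIP1 under APRIL did not pass without HBL-1 APRIL replicate 1 (0.0595) or 2 (0.0512) or BJAB APRIL replicate 1 (0.111). Over the alternatives run, 6 to 9 members passed under EDA and 6 to 8 under APRIL. BCL2L1 differed by -4.74 under EDA and -4.69 under APRIL, and BCL2L11 by -0.74 under EDA (adjusted p = 0.0286), while its difference of -0.52 under APRIL missed the threshold (0.118). The call under EDA was lost without any 1 of the 4 EDA arrays (adjusted p 0.083 to 0.186), after quantile normalization (0.061) and after cyclic loess (0.086). BAK1 missed it under both, with an adjusted p of 0.136 under EDA and 0.142 under APRIL. MCL1 had opposite signs, -0.32 under EDA and 0.19 under APRIL, and neither passed. PMAIP1 differed by 1.35 under EDA and 0.96 under APRIL, and BIK by 1.63 and 2.02. None of the 10 members passed the test of a change in the line difference with the ligand, which is given with the ligand results.

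**Figure D2:**
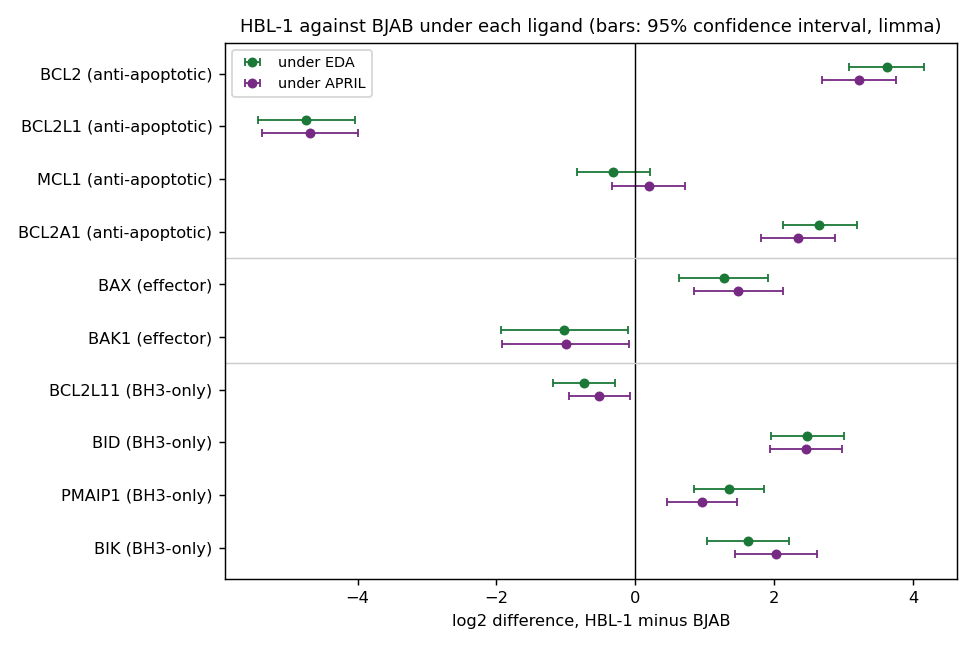
Log2 difference HBL-1 minus BJAB of each member under EDA and under APRIL, with limma's 95% confidence intervals (2 arrays per group). BCL2 and BCL2A1 lie right of 0, BCL2L1 far left at -4.74 and -4.69, and the interval of MCL1 includes 0 under both ligands.

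Each role held members on both sides of 0. The median difference between the lines was 1.22 for the 4 anti-apoptotic members (range -4.71 to 3.42) and 1.26 for the 6 effector and BH3-only members (-1.02 to 2.47), beside 0.01 for all genes. The means were 0.29 and 0.86. These are descriptions of chosen genes, and whether the roles differ as groups was not tested.

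The other genes of the pathway were read from 3 lists written for this family. Beside their counts, averaged over both ligands, 24.2% of all genes passed (10.3% higher and 13.9% lower). Of protein-coding genes alone 37% passed. Of 12 measured further BCL2-family genes, 3 passed with HBL-1 higher and 2 with HBL-1 lower (median difference 0.18). BMF, a BH3-only protein related to BIM and tethered to dynein light chain, averaged 11.40 on HBL-1 arrays against 8.13 on BJAB arrays (3.27, SE 0.16, adjusted p = 1.22e-07). BNIP3, a receptor for the removal of mitochondria, was at 7.68 and 5.48 (2.20), and BCL2L13, another such receptor, at 7.28 and 5.56 (1.73). Both lay near the negative-control medians in BJAB, so the sizes of these differences are bounded by background. Their HBL-1 means (7.68 and 7.28) also lay below the 95th percentile of the negative controls (8.25). BAD, a BH3-only protein that binds BCL2 and BCL-XL and is switched off by phosphorylation, was lower (6.86 against 8.14, -1.29), as was BCL2L12 (-0.51). The BMF mean in BJAB (8.13) and both BAD means lay below the 95th percentile of the negative controls (8.25). The sizes of the BMF and BAD differences may therefore be bounded by background. BMF and BAD, both BH3-only genes outside the 10 members, thus differed in opposite directions.

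The next list held 14 measured genes that act at the mitochondrial membrane or after it opens, the VDAC channels of that membrane among them. Of these 3 passed with HBL-1 higher and 6 with HBL-1 lower (median -0.29), beside 10.3% and 13.9% of all genes. APAF1, the scaffold of the apoptosome, was higher by 1.06 (SE 0.20, adjusted p = 0.00258), as were XIAP, an inhibitor of caspases (0.97), and the caspase CASP6 (0.70, with arrays of the lines overlapping). CYCS, cytochrome c itself, was lower by a difference of -0.95 (SE 0.14, adjusted p = 0.000544), and the nucleases ENDOG (-1.77) and DFFB (-1.54) were lower too. In HBL-1 ENDOG (8.02) and DFFB (7.18) lay below the 95th percentile of the negative controls (8.25), so these 2 sizes may be bounded by background. The list therefore held an apoptosome scaffold and a caspase inhibitor among its higher genes, and cytochrome c and nucleases among its lower ones.

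Of 14 measured regulators of the family, 3 passed with HBL-1 higher and 4 with HBL-1 lower (median 0.06), beside 10.3% and 13.9% of all genes. The kinases PIM1 (14.78 against 6.97, 7.81, SE 0.22) and PIM2 (17.13 and 13.74, 3.39), both of which phosphorylate BAD, were higher, and AKT1, a further BAD kinase, was lower (9.98 and 13.40, -3.41, SE 0.24). PIM1 in BJAB lay below the 95th percentile of the negative controls (8.25), so the size of its difference may be bounded by background. GSK3B, a kinase that marks MCL1 for degradation, was higher by 0.85. The mitochondrial ubiquitin ligase MARCHF5 (-1.01) and DYNLL1, the dynein light chain that binds BIM (-0.81), were lower. Regulators of BAD thus moved in both directions beside a lower level of BAD itself.

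**Figure D3:**
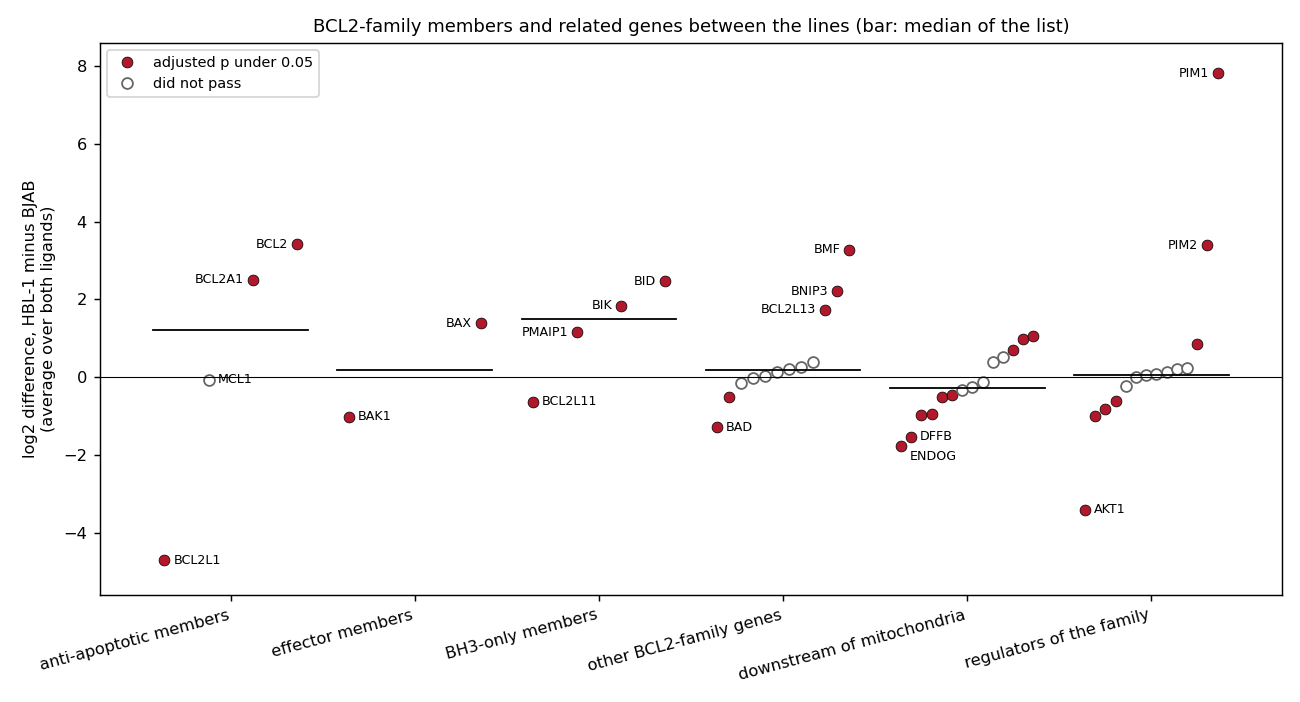
Log2 difference HBL-1 minus BJAB, averaged over both ligands, of the 10 members by role and of 3 lists of related genes; filled points had a limma adjusted p under 0.05 and bars are list medians. PIM1 (7.81) and BCL2L1 (-4.71) are the extremes, and every list has points on both sides of 0.

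The genes most like a member were sought among 17328 protein-coding genes by the root mean square difference over the 8 arrays, each gene centred on its own mean. The likest to BCL2 were KCNIP2 (0.18), MAGED1 (0.19) and PDE4B (0.20), which were all higher in HBL-1, with 152 genes within 0.5. BCL2 lay near the negative controls in BJAB, so the size matched here is bounded by background. KCNIP2 averaged 6.37 in BJAB, also below the 95th percentile of the negative controls (8.25). The likest to BCL2L1 were TSPO, a protein of the outer mitochondrial membrane (0.14), FAM78A (0.22) and GSTP1 (0.22), all lower in HBL-1, with 91 within 0.5. In HBL-1 FAM78A averaged 2.77, below the negative-control medians, and TSPO 7.12, below their 95th percentile (8.25), as was FAM78A in BJAB (7.51). The sizes of these 2 differences may therefore be bounded by background. STAM, ZNF101 and GTF2E1 (each 0.14) were the likest to BCL2A1, with 424 genes within 0.5. For BCL2L11 the measure singles out little: CSTF3 was at 0.07, PTP4A2 and RRM1 at 0.08, and 10998 genes were within 0.5. The measure takes in the size of the line difference as well as the spread between arrays. For BCL2, BCL2L1 and BCL2A1 the shared direction therefore follows from the match.

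The ligand comparison asked whether APRIL changed the family against EDA. No member passed in either line or on average over both. In HBL-1 0 of 10 members passed with limma (0 at an unadjusted p under 0.05), where 0.00297% of all genes did (2967 genes at an unadjusted p under 0.05), and in BJAB 0 of 10 (1 at an unadjusted p under 0.05), where 0% did (1365 genes at an unadjusted p under 0.05). On average over both lines 0 of 10 passed (1 unadjusted), beside 0% of all genes (2323 unadjusted). These comparisons use the same arrays as the line comparison.

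In HBL-1 all 10 members had a positive difference, from 0.11 for PMAIP1 to 0.49 for BIK, with a median of 0.25, whereas 63.7% of all genes were positive, with a median of 0.10 (0.20 over protein-coding genes). The APRIL arrays lay above the EDA arrays for 5 of the 10, BCL2, MCL1, BCL2L11, BID and BIK, and for 25.4% of all genes. They lay below for 0 of the 10 and for 11.1% of all genes, 36.5% of genes in all not overlapping. HBL-1 APRIL replicate 2 was the highest HBL-1 array for 8 of the 10 members. Without it 8 of the 10 were positive with a median of 0.14, and the median of all genes was 0.02. Without HBL-1 APRIL replicate 1 instead, 10 of the 10 were positive with a median of 0.46, and the median of all genes was 0.18. After quantile normalization 8 were positive with a median of 0.05, and after cyclic loess 9 with a median of 0.08. The sign of the difference changed without HBL-1 APRIL replicate 2 for BAK1, from 0.15 to -0.61, and for BCL2L1, from 0.27 to -0.17.

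By role, the 4 anti-apoptotic members differed in HBL-1 by 0.17 (BCL2A1) to 0.27 (BCL2), the effectors by 0.45 (BAX, 95% confidence interval -0.19 to 1.09) and 0.15 (BAK1, -0.76 to 1.07), and the BH3-only members by 0.11 to 0.49 (BIK, -0.10 to 1.09). Their medians were 0.25 for the anti-apoptotic and 0.27 for the 6 other members. The interval for BCL2A1, the NF-kB target, was -0.37 to 0.71, so a rise of more than 0.71 lies outside it. The widest interval was that of BAK1, whose HBL-1 APRIL arrays were at 7.02 and 8.55. In the 3 lists of related genes 0 genes passed for APRIL in either line, with medians of 0.19 to 0.22 in HBL-1 and of 0.00 to 0.07 in BJAB.

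In BJAB 8 of the 10 members had a positive difference (median 0.23), beside 50.3% of all genes (median 0.00). BCL2 had the largest, 0.66 (SE 0.24, 95% confidence interval 0.13 to 1.20, unadjusted p = 0.0203, limma adjusted p = 1), with both APRIL arrays above both EDA arrays but at 5.17 and 5.68, near the negative controls. PMAIP1 differed by 0.50 (-0.01 to 1.00) and BCL2A1 by 0.48 (-0.06 to 1.02). MCL1 (-0.28) and BCL2L11 (-0.03) were the 2 negative ones. The APRIL arrays lay above the EDA arrays for 5 of the 10, BCL2, BCL2A1, BAX, BID and PMAIP1, and for 17.3% of all genes. They lay below for 0 of the 10 and for 17% of all genes, 34.3% not overlapping in all. BCL2 and BID were the members whose APRIL arrays lay above the EDA arrays in both lines, which was so for 5.09% of all genes, with 2.14% below in both and 7.24% in either direction. Averaged over both lines their differences were 0.47 (0.09 to 0.84, adjusted p = 0.675) and 0.35 (-0.02 to 0.72, adjusted p = 0.723).

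**Figure D4:**
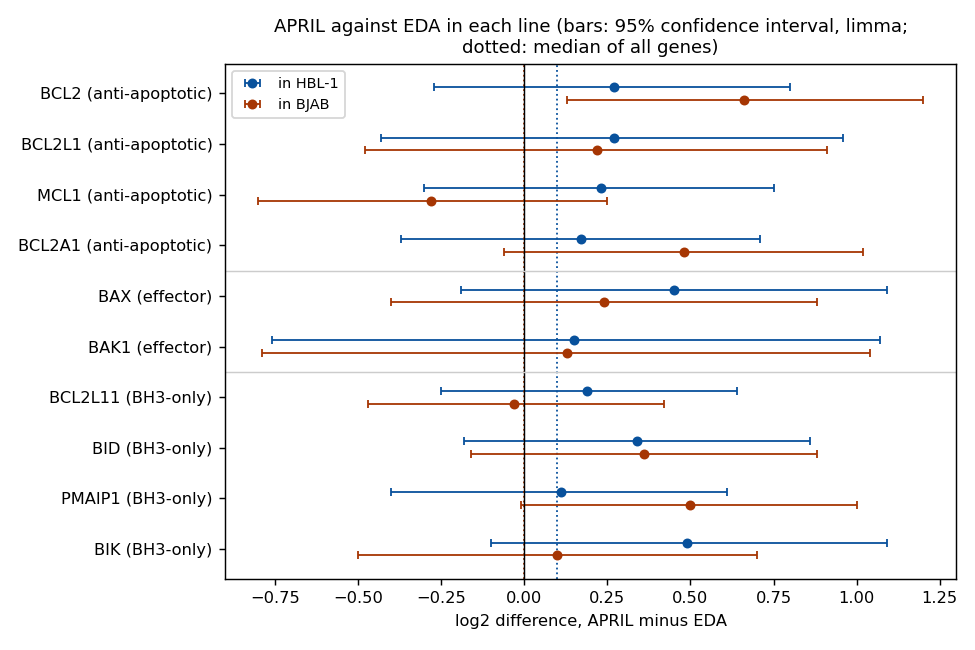
Log2 difference APRIL minus EDA of each member in HBL-1 and in BJAB, with limma's 95% confidence intervals (2 arrays per group); dotted lines are the medians of all genes, 0.10 in HBL-1 and 0.00 in BJAB. In BJAB the interval of BCL2 (0.13 to 1.20) excludes 0 before adjustment, and all the other intervals include 0.

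The responses of the lines were compared directly. No member passed the test of the difference of the APRIL responses, HBL-1 minus BJAB (0 at an unadjusted p under 0.05, where 0% of all genes passed after adjustment and 1894 genes had an unadjusted p under 0.05). MCL1 had the largest, 0.50 (SE 0.33, 95% confidence interval -0.24 to 1.25, adjusted p = 0.918), with a difference of 0.23 in HBL-1 and -0.28 in BJAB. BCL2 (-0.40), PMAIP1 (-0.39) and BIK (0.39) followed, and the interval of BAK1 ran from -1.27 to 1.32. With 2 arrays per group these intervals are wide, and they do not show that the responses were alike.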

How the data were processed

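RNA was measured on 8 Affymetrix arrays. The submitters' processing notes name RMA and Affymetrix Expression Console, from which the authors deposited log2 signals; versions and build are not given in the sources used here, and the log2 scale was read from the values. Rows naming exactly 1 gene were used, the brightest per gene (33616 genes, no filter on dim genes). A model with a mean for each of the 4 groups was fitted with limma 3.58.1 under R 4.3.3 (lmFit, eBayes, 4 residual and 6.02 prior degrees of freedom). Two-sided p-values were adjusted by Benjamini-Hochberg over all genes at a threshold of 0.05. The procedure was also run on simulated data with independent normal errors. That simulation held no array-wide shift such as that of HBL-1 APRIL replicate 2. Arrays give no read depth, and their number limits the precision: the median half-width of a 95% confidence interval was 0.55 within a line or ligand and 0.39 for averages. Members, lists and naming rules were chosen with earlier results of these data known. All 10 members were named; from each list, up to 3 passing genes per direction with the smallest p between the lines, and the 3 protein-coding genes likest to BCL2, BCL2L1, BCL2A1 and BCL2L11. Other list entries were not used here. Alternatives changed filter, rows, scaling, variance model, weights, genes, samples, a replicate block and each array in turn.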

Additional observations from a re-analysis of the deposited data

How the results depend on the processing

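With 2 arrays per group, 10 members and 18 or 19 alternatives per comparison, the calls of BCL2, BCL2L1, BCL2A1, BAX, BCL2L11, BID, PMAIP1 and BIK between the lines averaged over ligands held in every alternative run, and 8 or 9 members passed in each. The replicate block gave 9 members there, 8 under EDA and 7 under APRIL, as without it, and 7996 genes in place of 8135 in the averaged comparison. The labels tie the numbers to no shared culture. The replicate differences of any pair of groups correlated at -0.02 to 0.06 across genes, which cannot settle whether arrays of the same number shared a culture or a batch. Under single ligands, where the cause was not tested, BCL2L11 under EDA did not pass after quantile normalization (-0.63), after cyclic loess (-0.57) or without any 1 of the 4 EDA arrays (-0.83 to -0.64), BAX under EDA without HBL-1 EDA replicate 1 (0.91) or BJAB EDA replicate 1 (1.09), and PMAIP1 under APRIL without HBL-1 APRIL replicate 1 (0.93) or 2 (0.98) or BJAB APRIL replicate 1 (0.84). BAK1 under EDA passed with only the arrays compared and without either HBL-1 APRIL array, and BCL2L11 under APRIL passed with an intensity trend and robust shrinkage.

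Genes called between the lines under EDA were 5564, and 3686 to 5871 without 1 array, the lowest without BJAB EDA replicate 1. The 1 gene called for APRIL in HBL-1 became 0 with every transcript cluster, with array weights, with only the arrays compared, with the replicate block and without any 1 array (0 to 0), and 1 gene was called on average over both lines with an intensity trend and robust shrinkage, where 0 was called otherwise.

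Signs changed for differences that passed in no setting. With equal array medians the difference of responses was -0.04 for BCL2L1 and -0.07 for BAK1. With quantile normalization MCL1 between the lines was 0.03, BAK1 and PMAIP1 in HBL-1 were -0.04 and -0.10, BCL2L11 averaged over lines was -0.01, and the difference of responses was -0.13 for BCL2L1 and -0.11 for BAK1. With cyclic loess MCL1 was 0.05, PMAIP1 in HBL-1 -0.03, and the difference of responses -0.08 for BCL2L1 and -0.10 for BAK1. Leaving out 1 array at a time, MCL1 ran from -0.18 to 0.05 between the lines and from -0.14 to 0.09 for APRIL averaged over lines, where BAK1 ran from -0.24 to 0.52. In HBL-1 the ranges were -0.61 to 0.92 for BAK1, -0.14 to 0.35 for PMAIP1 and -0.17 to 0.70 for BCL2L1, and in BJAB -0.19 to 0.39 for BIK, -0.04 to 0.47 for BCL2L1 and -0.12 to 0.07 for BCL2L11. For the difference of responses they were -0.39 to 0.49 for BCL2L1, -0.74 to 0.79 for BAK1, -0.19 to 0.16 for BID and -0.15 to 0.57 for BAX.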
